A study of Mus musculus with 18 samples.

Results

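The imprinted growth genes examined here are 10 genes that were chosen by name: *Meg3*, *Rian*, *Mirg*, *Dlk1*, *H19*, *Igf2*, *Peg3*, *Cdkn1c*, *Plagl1* and *Grb10*. Each was found once by its identifier among the 54838 genes of the deposited count table. The table holds 18 RNA-sequencing libraries of mouse neural cultures, with 3 replicates in each of 6 conditions. All cultures came from C57BL/6J neural stem cells of the ventricular zone at embryonic day 14. Neurospheres (NSPs), which are floating clusters of dividing stem cells, were kept with EGF at 20 ng/ml. The other cultures were differentiated towards astrocytes in medium with 10% serum for 24 h, 72 h or 1 week. TNF, an inflammatory cytokine, was added at 50 ng/ml in the 24 h TNF and 72 h TNF conditions, and the 1 week cultures had no TNF. No donor animal or culture batch is given for a replicate, so p-values measure the spread between these libraries, which may be partly technical.

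Imprinted genes are read mainly from the copy inherited from 1 parent, and many of them set the growth of the embryo and the placenta. Several encode opposing parts of the insulin-like growth factor pathway or brakes on the cell cycle, and they often lie in clusters that share a control region. In neural stem cells, members of this group are known for roles in the balance between self-renewal, quiescence and differentiation. The mice were inbred, so the counts do not tell the parental copies apart, and levels here are sums over both.

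Of the 10 genes, 6 were at or near 0 in every condition and 4 were measured well enough to compare. *Peg3*, a paternally expressed zinc-finger gene, was abundant and peaked at 24 h. *Plagl1*, a paternally expressed zinc-finger gene linked to cell cycle arrest, rose 33.0-fold from NSPs to 1 week. *Cdkn1c*, a maternally expressed inhibitor of cyclin-dependent kinases, and *Grb10*, an adaptor that dampens insulin and IGF receptor signalling, were highest in NSPs. The 4 genes with no or few counts on chromosome 12 belong to a single imprinted cluster, whose annotated genes were nearly all at 0.

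Total counts per library ranged from 12509693 to 22549627. At this depth 3 counts in a library, taken as the limit of detection, correspond to 0.133 to 0.24 CPM. Levels are given as CPM, read counts scaled to a common library size with TMM factors. Differences are log2 fold changes from edgeR's quasi-likelihood test over all 18 libraries, with p-values adjusted by Benjamini-Hochberg over the 20067 genes that passed the filter on low counts. A difference was called at an adjusted p under 0.05. The test had 7 comparisons: 24 h with NSP, 72 h with 24 h, 1 week with 72 h, 1 week with NSP, TNF with no TNF at 24 h and at 72 h, and the difference between both TNF effects. These comparisons share libraries and are not independent of each other. In these bulk cultures, fewer cells that use a gene and less RNA per cell cannot be told apart.

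The replicates were not equally alike. The first NSP replicate lay farthest from its own condition of all 18 libraries (mean distance 0.672, the root mean square log2 difference over genes), and without it each call and non-call of the 4 tested genes against NSPs stayed as it was. The first replicate of 24 h TNF was as far from its own condition (mean distance 0.646) as from 72 h TNF (0.642). Both first TNF replicates carried more *Gfap*, the intermediate filament of astrocytes, than the other 2 of their condition (1870.8 CPM against 463.0 and 596.5 at 24 h, and 1021.6 against 217.0 and 229.1 at 72 h). They also carried less *Acta2*, an actin of smooth muscle and other contractile cells (90.26 CPM against 527.0 and 492.5 at 24 h, and 49.25 against 186.0 and 201.8 at 72 h). The TNF effects at 24 h and 72 h on the tested members are therefore also given without these 2 libraries, an alternative chosen after the data were seen, and for the comparison lists the calls that were lost without them are named. *Gfap* itself went from 11.61 to 37.34 CPM in NSPs to 1854.8 to 3171.9 CPM at 72 h, and was 52.67 to 81.62 CPM at 1 week. Of the 8 listed astrocyte markers, *Aqp4* and *Gja1* also had higher means at 72 h than in NSPs. The means of *Slc1a2*, *Slc1a3*, *Aldh1l1*, *S100b* and *Aldoc* were lower. The sum over all 8 was 5128.1 to 5363.6 CPM in NSPs, 5696.2 to 8144.7 CPM at 72 h and 2683.3 to 3247.4 CPM at 1 week. Summed over their lists, 6 microglial markers stayed between 0.8391 and 3.132 CPM and 5 endothelial markers between 1.803 and 6.872 CPM, and *C1qa* and *Lum* had 0 counts in every library.

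Positions below are those of GENCODE M21 on GRCm38, the build named as mm10 in the submitters' processing notes. The starts of 3 members are shown as reference sequence because their levels differ most: *Peg3* is the most abundant member, *Plagl1* shows the largest rise and *Meg3* had almost no counts. Each line holds the 250 bases before a RefSeq start on GRCm38.p6, from 5′ to 3′ on the strand of the gene, with CG dinucleotides in capitals, the sites where imprinted methylation is laid down. The *Peg3* window is chr7:6730420-6730669 on the minus strand, that of *Plagl1* is chr10:13090582-13090831 on the plus strand and that of *Meg3* is chr12:109540746-109540995 on the plus strand.
Peg3: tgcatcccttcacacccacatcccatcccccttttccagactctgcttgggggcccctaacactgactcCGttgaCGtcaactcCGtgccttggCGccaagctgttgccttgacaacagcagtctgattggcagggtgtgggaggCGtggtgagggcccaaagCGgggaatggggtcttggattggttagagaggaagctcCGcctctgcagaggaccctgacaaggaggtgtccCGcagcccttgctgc
Plagl1: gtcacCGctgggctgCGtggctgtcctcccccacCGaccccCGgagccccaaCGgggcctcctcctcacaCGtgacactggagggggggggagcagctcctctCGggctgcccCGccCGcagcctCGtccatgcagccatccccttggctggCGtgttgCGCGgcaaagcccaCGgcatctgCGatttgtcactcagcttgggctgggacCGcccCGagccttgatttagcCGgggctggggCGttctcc
Meg3: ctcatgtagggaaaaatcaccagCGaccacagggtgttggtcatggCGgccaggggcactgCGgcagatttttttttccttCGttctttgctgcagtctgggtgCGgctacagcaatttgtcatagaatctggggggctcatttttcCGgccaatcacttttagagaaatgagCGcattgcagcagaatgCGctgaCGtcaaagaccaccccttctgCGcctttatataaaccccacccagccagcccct
The *Plagl1* window holds 19 CG dinucleotides, a number reached by 19.7% of the 32851 promoters in the RefSeq table. The *Meg3* window holds 10 (reached by 37.8% of promoters) and the *Peg3* window holds 8 (reached by 43% of promoters). The median over all promoters is 6. The first start of *Grb10*, a gene of low level here, has 40 in its 250 bases, which 1.31% of promoters reach. The order of these CG counts is not the order of the levels. The letters GGGGCCCC, which read the same on both strands and form the core of a motif described for PLAGL1, were searched in the same windows. They occur once in the *Peg3* window and in 0.889% of all promoters, and in no window of the other 7 members listed. That is a match of letters and not a measured site. The table has 13 starts for 8 of the 10 genes. *H19* and *Cdkn1c* have no entry.

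The cluster between *Dlk1* and *Dio3* on chromosome 12 holds 4 of the genes. *Dlk1*, which encodes a transmembrane protein of the Notch ligand family, is read from the paternal copy, and *Meg3*, *Rian* and *Mirg* are long non-coding RNAs read from the maternal copy that carry small nucleolar RNAs and microRNAs in their introns or exons. Over all 18 libraries, *Meg3* (chr12:109541001-109571726, plus strand) had 1 count, in 24 h TNF replicate 1. *Rian* (chr12:109603940-109661716, plus strand) had 3 counts, 1 and 2 in the first and second replicates of 1 week. *Mirg* (chr12:109729764-109749460, plus strand) had 1 count, in 24 h replicate 2. *Dlk1* (chr12:109452823-109463336, plus strand) had 1 count, in 72 h replicate 3. All other values of these 4 genes were 0, and no condition stood out.

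**Figure D1:**
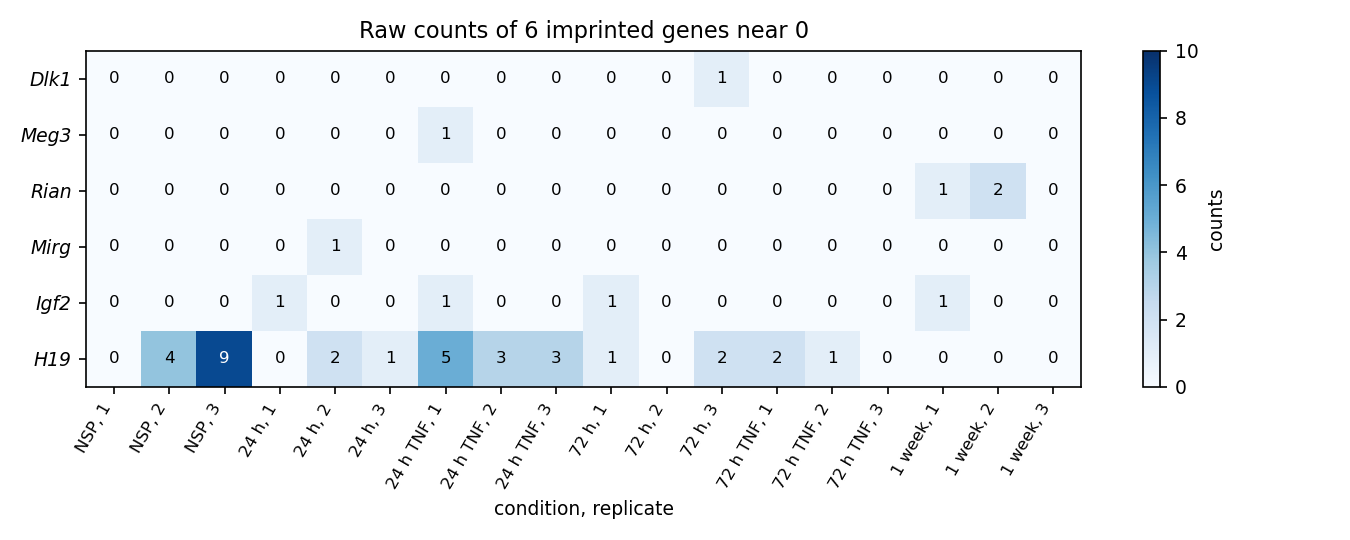
Raw counts of the 6 genes near 0 (rows) in each library (columns, condition and replicate), with the shade giving the count from 0 to 10. *H19* reached 9 counts in an NSP library and the other 5 genes never exceeded 2.

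The count of 1 for *Meg3* among 295653356 counts in all is 0.00338 CPM, with an exact Poisson 95% interval of 8.56e-05 to 0.0188, which covers counting error only. For *Rian* the pooled value was 0.0101 CPM (0.00209 to 0.0297). In NSPs, where *Meg3*, *Rian*, *Mirg* and *Dlk1* all had 0 of 54592213 counts, the upper end of the interval was 0.0676 CPM. These genes have long exons, 18089 bases for *Meg3* and 18234 for *Rian*, against 13324 for *Peg3*, which collected 186776 counts. Small annotated RNAs and an antisense transcript overlap them, at most 6.8% of the exon bases of *Meg3* in a single overlap. The part of reads shared between genes in these counts was not tested.

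The surrounding cluster was near 0 as well. From the start of *Dlk1* to the end of *Dio3*, over 828 kb, the table lists 118 annotated genes, and 112 of them had 0 counts in every library. The other 6 summed to 30 counts, of which 23 fell on *Gm3379*. The 67 microRNA genes and 23 small nucleolar RNA genes in the interval had 0 counts, although libraries of fragmented total RNA are poor at catching RNAs of that size. *Rtl1*, the paternally expressed retrotransposon-derived gene of the cluster, was at 0 in every library. On either side, the nearest coding genes with more than 180 counts in all were *Wdr25*, 424 kb before *Dlk1*, at 4.96 to 11.23 CPM, and *Ppp2r5c*, 166 kb after *Dio3*, at 121.86 to 216.08 CPM. Genes that lie closer with fewer counts are not counted here. *Dlk2*, the non-imprinted relative of *Dlk1*, went from 0.198 CPM ± 0.132 (SD, n = 3) in NSPs to 4.46 ± 1.93 at 24 h (log2 fold change 4.45 ± 0.59 SE, adjusted p = 6.71e-06, edgeR), and fell by 2.2 on the log2 scale from 24 h to 72 h (SE 0.48, adjusted p = 0.00208, edgeR).

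*Igf2* and *H19* are neighbours on chromosome 7. *Igf2*, a paternally expressed growth factor, lies at chr7:142650766-142666816 on the minus strand, and *H19*, a maternally expressed non-coding RNA, at chr7:142575529-142578143 on the same strand. *Igf2* had 4 counts in all, 1 in each first replicate of 24 h, 24 h TNF, 72 h and 1 week, and 0 in the other 14 libraries. Its pooled value was 0.0135 CPM (0.00369 to 0.0346). In this annotation 62.8% of its exon bases are shared with *Gm49394*, a gene on the same strand that had 0 counts, and a read that fits both genes may be dropped by the counting. The level of *Igf2* is therefore less certain than that of *Meg3*.

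*H19* had 33 counts in all, in 11 libraries, and was below the filter. Its counts were 0, 4 and 9 in NSPs, 0, 2 and 1 at 24 h, and 5, 3 and 3 at 24 h TNF. They were 1, 0 and 2 at 72 h, 2, 1 and 0 at 72 h TNF, and 0 in the 3 libraries of 1 week. Pooled over replicates, *H19* was at 0.238 CPM in NSPs (0.127 to 0.407) and at 0 at 1 week, where the interval reached up to 0.0683 CPM. The NSP libraries ranged from 0 to 9 counts, so NSPs and 1 week overlapped. The settings that test genes of so few counts called *H19* lower at 1 week than in NSPs, with adjusted p = 0.0143 in DESeq2, and in edgeR 0.00876 with at least 5 counts in total and 0.00184 with no filter.

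Among the partners of IGF2 and GRB10 that were listed for comparison, 8 of 9 were tested. From NSPs to 24 h 6 rose and 1 fell, beside 27.2% of all tested genes called higher and 25.5% called lower. The median log2 fold change of the 8 was 0.70, against 0.06 over all tested genes. *Igf1*, the other IGF ligand, started in NSPs at 0.188 CPM ± 0.200, with 3.99 ± 0.373 after 24 h, 10.6 ± 0.935 after 72 h and 16 ± 5.16 after 1 week (SD, n = 3). Its log2 fold change from NSPs to 1 week was 6.32 ± 0.67 SE (adjusted p = 2.08e-07, edgeR). *Irs1*, a docking protein of the insulin and IGF receptors, rose at 24 h (log2 fold change 1.61 ± 0.17 SE, adjusted p = 5.46e-07, edgeR). *Igf2r*, the maternally expressed receptor that clears IGF2, fell by 0.84 on the log2 scale (SE 0.20, adjusted p = 0.00192, edgeR). *Igf1r*, the signalling receptor, rose at 24 h by 0.51 (SE 0.16, adjusted p = 0.0113, edgeR), a call lost without the third 24 h replicate (adjusted p = 0.0674). Of the other rises, that of *Insr*, the insulin receptor, was lost in 9 of 27 alternatives, DESeq2 and RLE scaling among them, and that of *Igf2bp3* without the second NSP replicate. At 1 week against NSPs 5 were higher and 1 was lower, beside 29.6% and 29.1% over all. With TNF *Irs1* was lower at 24 h, a call lost in 7 of 27 alternatives (adjusted p up to 0.146, edgeR), among them those without any 1 untreated 24 h replicate or without both first TNF replicates (-0.60, adjusted p = 0.0845, edgeR), and 2, *Igf1r* and *Igf2r*, were higher at 72 h, beside 1.32% lower at 24 h and 4.35% higher at 72 h over all. The *Igf2r* call was lost in 4 of 27 alternatives, among them those without the first 72 h TNF or the third 72 h replicate. From 24 h to 72 h 2 rose and 1 fell, beside 12.2% and 12.6% over all, with the rise of *Igf1* lost in 7 of 26 alternatives and the fall of *Irs1* in 6 of 27, and none was called between 72 h and 1 week or in the interaction by edgeR or DESeq2 (2 in each at an unadjusted p under 0.05).

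*Peg3* (chr7:6703892-6730431, minus strand), which encodes a zinc-finger protein known in growth and maternal behaviour, ranked 106 of 54838 genes by its mean level over the libraries. Its values were 550.7, 454.9 and 457.9 CPM in NSPs, and 1217.0, 1152.2 and 1156.8 CPM at 24 h. At 72 h they were 523.2, 511.1 and 515.6 CPM, and at 1 week 615.8, 666.6 and 610.2 CPM. Every 24 h library was thus above every library of the other conditions, while NSPs and 72 h overlapped. *Peg3* rose 2.41-fold from NSPs to 24 h (log2 fold change 1.27 ± 0.21 SE, adjusted p = 8.5e-05, edgeR). It then fell by 1.19 on the log2 scale from 24 h to 72 h (SE 0.21, adjusted p = 0.000443, edgeR). The difference of 0.29 between 1 week and 72 h and that of 0.37 between 1 week and NSPs (SE 0.21 for both) did not pass (adjusted p = 0.516 and 0.138, edgeR). The latter became a call in 4 of 27 alternatives, among them the one without the 2 first TNF replicates (0.38, adjusted p = 0.00346). *Acta2* also rose with *Peg3* to 24 h, from 3.527 to 10.34 CPM in NSPs to 400.9 to 493.8 CPM, and was at 194.7 to 291.6 CPM at 72 h and 323.4 to 408.4 CPM at 1 week. Its part in the level of *Peg3* was not tested.

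With TNF, *Peg3* was at 494.9, 866.6 and 811.1 CPM at 24 h and at 219.7, 443.4 and 418.9 CPM at 72 h. All 3 TNF libraries lay below all 3 untreated libraries of the same time, and the first replicate was the lowest each time. The difference was -0.70 ± 0.21 SE at 24 h (adjusted p = 0.0832, edgeR) and -0.52 ± 0.21 SE at 72 h (adjusted p = 0.134, edgeR), and neither passed. Without the 2 first TNF replicates the 24 h difference was -0.49 and passed (adjusted p = 0.0194), and the 72 h difference was -0.27 and did not (adjusted p = 0.17). DESeq2 also called the 24 h difference (-0.70, adjusted p = 0.0369). Both libraries with the lowest *Peg3* of their condition were those with low *Acta2* and high *Gfap*. Of the other mesenchymal markers *Lum* was at 0 in all libraries and *Col1a1* at 0 to 0.6929 CPM. *Col3a1*, a fibrillar collagen, was at 1.197, 1.715 and 1.415 CPM at 24 h TNF against 0.2267 to 0.4889 CPM at 24 h, without overlap. The part of cell composition in the level of *Peg3* was not tested.

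**Figure D2:**
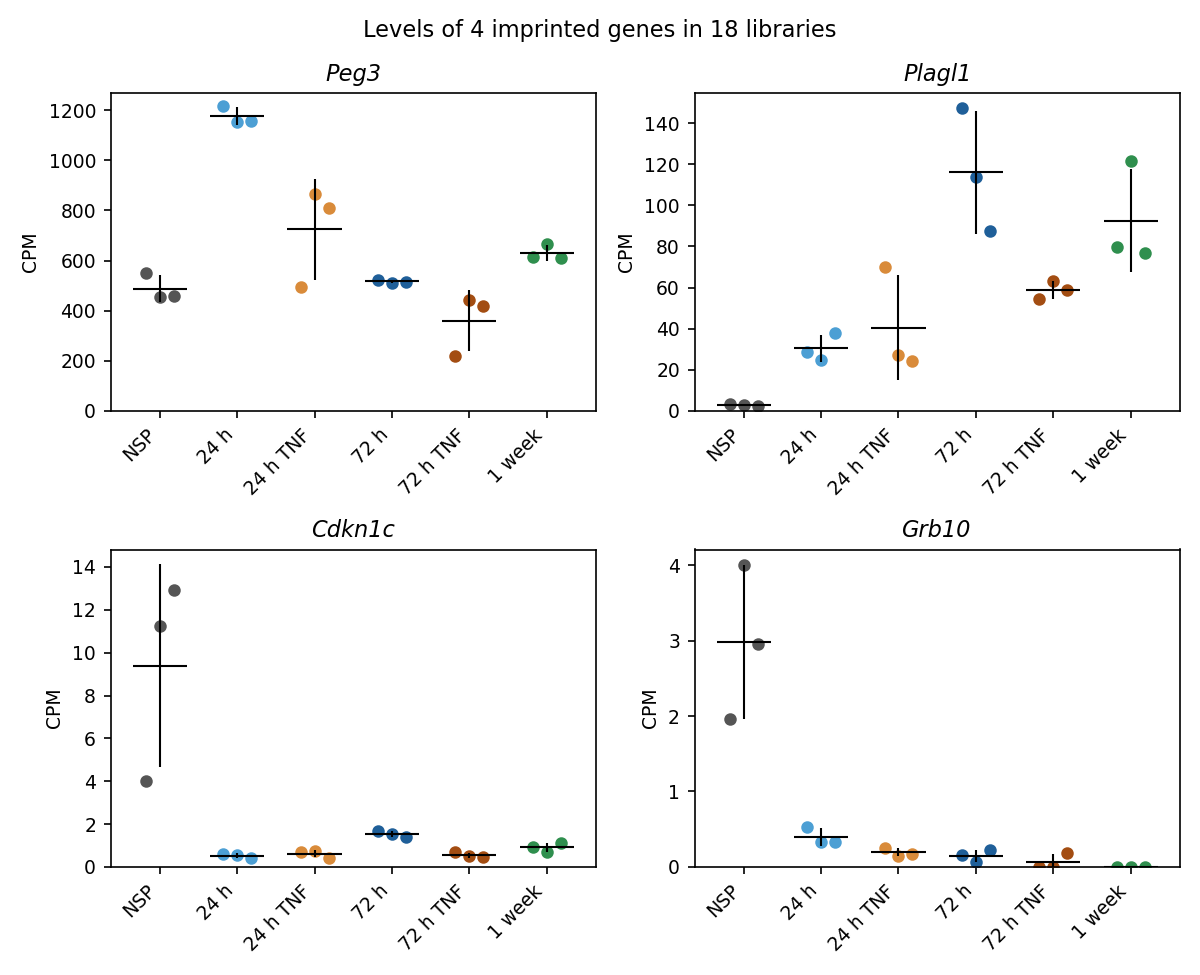
Level in CPM (vertical axis, linear from 0) of *Peg3*, *Plagl1*, *Cdkn1c* and *Grb10* in each library, by condition; points are libraries in replicate order, the horizontal line is the mean and the vertical line the SD over 3. *Peg3* peaks at 24 h (1175.4 CPM), *Plagl1* at 72 h (116.1 CPM), and *Cdkn1c* and *Grb10* are highest in NSPs (9.39 and 2.98 CPM).

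*Peg3* lies in an imprinted domain with *Usp29*, which is paternally expressed from the opposite strand, and *Zim1*, which is maternally expressed. The annotated start of *Usp29* (chr7:6730578-6967219, plus strand) is 0.1 kb from that of *Peg3*, inside the *Peg3* window shown above. The annotated start of *Zim1* (chr7:6671269-6696450, minus strand) is 7.4 kb from the 3′ end of *Peg3*. *Usp29* started in NSPs at 11.9 CPM ± 1.02, with 17.9 ± 1.52 after 24 h, 8.11 ± 1.55 after 72 h and 7.54 ± 1.07 after 1 week (SD, n = 3). *Zim1* was at 6.10 ± 0.499, 13.7 ± 2.28, 4.45 ± 0.566 and 4.03 ± 1.13 CPM in the same order. Both genes were therefore highest at 24 h, as *Peg3* was, at levels far below it. *Usp29* rose by 0.58 to 24 h (SE 0.18, adjusted p = 0.00932, edgeR) and fell by 1.14 from 24 h to 72 h (SE 0.18, adjusted p = 0.000127, edgeR), on the log2 scale. *Zim1* rose by 1.17 (SE 0.20, adjusted p = 0.000111, edgeR) and fell by 1.62 (SE 0.21, adjusted p = 1.48e-05, edgeR). At 1 week *Usp29* was below NSPs (-0.66, adjusted p = 0.00416, edgeR), and so was *Zim1* (-0.59, adjusted p = 0.021, edgeR), a call lost in 6 of 27 alternatives. The difference of *Peg3* was not called.

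**Figure D3:**
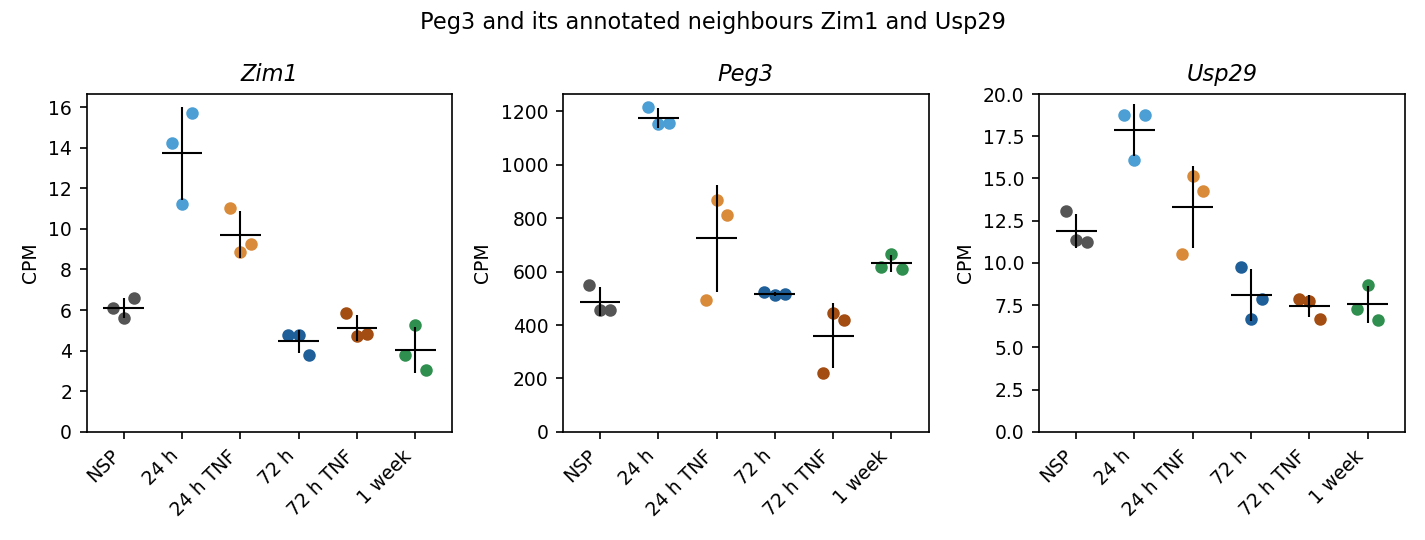
Level in CPM (vertical axis, linear from 0) of *Zim1*, *Peg3* and *Usp29* in each library, by condition; points are libraries, the horizontal line is the mean and the vertical line the SD over 3. The mean is highest at 24 h for each gene, at 13.7, 1175.4 and 17.9 CPM.

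*Plagl1* (chr10:13060504-13131694, plus strand) was low in NSPs and rose with differentiation. Its values were 3.11, 3.02 and 2.276 CPM in NSPs and 28.72, 24.82 and 37.73 CPM at 24 h. They were 147.2, 113.7 and 87.55 CPM at 72 h and 79.5, 121.5 and 76.62 CPM at 1 week. NSPs, 24 h and 72 h did not overlap, and 72 h and 1 week did. The rise from NSPs to 24 h was 10.9-fold (log2 fold change 3.44 ± 0.37 SE, adjusted p = 4.99e-07, edgeR). From 24 h to 72 h it was 3.82-fold (1.93 ± 0.31 SE, adjusted p = 0.000164, edgeR). From NSPs to 1 week the log2 fold change was 5.04 ± 0.38 SE (adjusted p = 2.13e-09, edgeR), and the difference between 1 week and 72 h was -0.33 ± 0.30 SE (adjusted p = 0.623, edgeR). The summed level of 5 markers of choroid plexus and ependymal cells went the same way, from 19.67 to 33.39 CPM in NSPs to 83.96 to 99.07 CPM at 24 h, 233.8 to 328.1 CPM at 72 h and 216.4 to 274 CPM at 1 week. Of these markers *Ttr*, the transport protein that choroid plexus makes in bulk, stayed at 0 to 0.4717 CPM, and *Kl* at 0 to 0.1511 CPM. The other 3 were higher in every 72 h and 1 week library than in any NSP library, as *Plagl1* was. *Foxj1*, which made up most of the sum in each condition, had a mean of 27.8 CPM in NSPs, 270.9 at 72 h and 211.9 at 1 week. *Folr1*, a folate receptor, had a mean of 0.0212 CPM in NSPs, 15.2 at 72 h and 22.9 at 1 week, and *Ccdc153*, a gene of ciliated cells, one of 0.546, 9.34 and 9.75 CPM. The part of such cells in the level of *Plagl1* was not tested.

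With TNF, *Plagl1* was at 69.98, 27.14 and 24.41 CPM at 24 h, where the first replicate stood above the other 2 and the untreated libraries overlapped with them. The difference at 24 h was 0.42 ± 0.31 SE (adjusted p = 0.63, edgeR), and it turned to -0.25 without the first 24 h TNF replicate. At 72 h TNF the values were 54.66, 63.37 and 58.69 CPM, all below the untreated ones. *Plagl1* fell 1.97-fold with TNF at 72 h (log2 fold change -0.98 ± 0.30 SE, adjusted p = 0.0468, edgeR). That call was close to the threshold and was lost when either of the first 2 untreated 72 h replicates, any 72 h TNF replicate, or 1 of 7 libraries of other conditions was left out (adjusted p up to 0.139). The replicate block (-0.94, adjusted p = 0.0526), the block with the third 72 h replicate unpaired (-1.05, adjusted p = 0.0936) and the filter of 10 counts in every library (-0.95, adjusted p = 0.0753) ended it as well. It held without the 2 first TNF replicates (-0.93, adjusted p = 0.0112). The change of the TNF effect from 24 h to 72 h was -1.40 ± 0.43 SE and did not pass (adjusted p = 0.211, edgeR), and without the 2 first TNF replicates it was -0.69 (adjusted p = 0.486, edgeR).

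Per kilobase of exon, *Peg3* was 102 times *Plagl1* in NSPs, 22.7 times at 24 h, 2.61 times at 72 h and 4.0 times at 1 week. With TNF the ratio was 10.5 at 24 h and 3.59 at 72 h. The value at 24 h TNF depends on the first replicate. That library had less *Peg3* (494.9 against 866.6 and 811.1 CPM) and more *Plagl1* (69.98 against 27.14 and 24.41 CPM) than the others. Both genes are paternally expressed zinc-finger genes, and their levels lay closest at 72 h.

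*Cdkn1c* (chr7:143458339-143461050, minus strand) was at 3.998, 11.26 and 12.91 CPM in NSPs, with the first replicate the lowest. At 24 h it was at 0.605, 0.559 and 0.407 CPM, from 8, 10 and 5 counts. At 72 h it was at 1.665, 1.534 and 1.376 CPM, and at 1 week at 0.928, 0.713 and 1.127 CPM. All NSP libraries were above all others, and 72 h did not overlap with 24 h. The fall from NSPs to 24 h was 17.9-fold (log2 fold change -4.14 ± 0.40 SE, adjusted p = 1.55e-07, edgeR). From 24 h to 72 h *Cdkn1c* rose 2.91-fold (1.51 ± 0.44 SE, adjusted p = 0.0162, edgeR), a call lost without the third 24 h replicate (1.39, adjusted p = 0.0649). At 1 week it was 10.2-fold below NSPs (-3.35 ± 0.36 SE, adjusted p = 2.89e-07, edgeR), and not called against 72 h (-0.73 ± 0.39 SE, adjusted p = 0.333, edgeR). An antisense gene with 0 counts, *Gm44732*, covers 30.7% of its exon bases.

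With TNF, *Cdkn1c* was at 0.693, 0.746 and 0.413 CPM at 24 h, overlapping with the untreated libraries (0.20 ± 0.49 SE, adjusted p = 0.918, edgeR), and without both first TNF replicates the difference was 0.09 (adjusted p = 0.973, edgeR). At 72 h TNF it was at 0.676, 0.522 and 0.438 CPM, below all 3 untreated libraries. *Cdkn1c* fell 2.8-fold with TNF at 72 h (log2 fold change -1.46 ± 0.42 SE, adjusted p = 0.036, edgeR). These values rest on 7 to 12 counts per TNF library, and the call was lost when any single 72 h or 72 h TNF library was left out (adjusted p from 0.0559 to 0.102). It was also lost without the second 24 h replicate (adjusted p = 0.0501), without both first TNF replicates (-1.65, adjusted p = 0.0568), and with the block that leaves the third 72 h replicate unpaired (-1.58, adjusted p = 0.0935). The TNF effects at 72 h and 24 h differed by -1.66 ± 0.65 SE, which did not pass (adjusted p = 0.388, edgeR).

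*Cdkn1c* shares the distal end of chromosome 7 with *H19* and *Igf2*. Of 37 annotated genes from *H19* to *Cdkn1c*, over 886 kb, 17 had 0 counts and 8 had more than 180 counts in all. The largest was *Cd81*, a tetraspanin, with 289602 counts. *Kcnq1ot1*, the paternally expressed long non-coding RNA that silences *Cdkn1c* on its own chromosome copy, was abundant. Its level in NSPs was 221 CPM ± 26.8, followed by 438 ± 52.3 after 24 h, 471 ± 118 after 72 h and 505 ± 63.6 after 1 week (SD, n = 3). It rose to 24 h by 0.99 on the log2 scale (SE 0.18, adjusted p = 0.000156, edgeR), in the comparison in which *Cdkn1c* fell. From 24 h to 72 h, where *Cdkn1c* rose, *Kcnq1ot1* was not called (0.10, adjusted p = 0.719, edgeR). It was not called with TNF at 24 h (0.11, adjusted p = 0.869, edgeR) or 72 h (0.24, adjusted p = 0.423, edgeR). Whether the levels of both genes are linked was not tested. *Kcnq1ot1* is antisense to *Kcnq1*, and the strand setting of the counting is not given in the sources used here.

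The other CDKN1 inhibitors and the G1/S genes gave a group of 8, all tested. From NSPs to 24 h 6 fell and none rose, beside 25.5% and 27.2% of all tested genes, with a median log2 fold change of -1.45 against 0.06 over all. *Ccna2*, a cyclin of S phase, fell by 4.35 (SE 0.26, adjusted p = 6.36e-10, edgeR), and *Ccnd1*, a cyclin of G1, fell by 4.09 (SE 0.43, adjusted p = 3.91e-07, edgeR). *Cdkn1b*, the p27 inhibitor, had a difference of 0.20 (SE 0.16, adjusted p = 0.322, edgeR), and *Cdkn1a*, the p21 inhibitor, one of -0.48 (SE 0.25, adjusted p = 0.107, edgeR). *Cdkn1c* fell at 24 h, as these cyclins did, and its related inhibitors were not called. *Cdkn1a* was higher with TNF at 24 h (1.17 ± 0.25 SE, adjusted p = 0.00978, edgeR) and at 72 h (1.35 ± 0.25 SE, adjusted p = 0.00133, edgeR), the time at which *Cdkn1c* was lower. The 24 h call was lost without the first or second 24 h replicate or the first 24 h TNF replicate, and held without both first TNF replicates (0.87, adjusted p = 0.00392, edgeR). At 1 week against NSPs 1 of the group was higher and 6 were lower (29.6% and 29.1% over all), from 24 h to 72 h 3 fell (12.6% over all), and from 72 h to 1 week 2 rose (2.68% over all). With TNF 1 was higher at 24 h (2.18% over all) and 2 at 72 h (4.35% over all). The second at 72 h was *Ccnd1*, a call lost in 11 of 27 alternatives, the replicate block among them (adjusted p up to 0.168, edgeR). The *Ccnd1* calls at 72 h against 24 h and at 1 week against 72 h were lost in 7 and 2, and that of *Ccne1* from 24 h to 72 h in 1 of 26. In the group none was called in the interaction by edgeR or DESeq2 (0 at an unadjusted p under 0.05).

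*Grb10* (chr11:11930508-12038683, minus strand) was measured in NSPs at 1.967, 4.009 and 2.958 CPM, from 31, 73 and 52 counts. At 24 h it had 7, 6 and 4 counts, at 24 h TNF 4, 2 and 3, at 72 h 2, 1 and 4, at 72 h TNF 0, 0 and 3, and at 1 week 0 in each library. NSPs were above every other library. *Grb10* passed the filter through its level in NSPs, so a difference from NSPs was built into its being tested. From NSPs to 24 h it was 7.51-fold lower (log2 fold change -2.90 ± 0.47 SE, adjusted p = 8.03e-05, edgeR). At 1 week it was at least 17.6-fold lower than in NSPs, taking 3 counts per library as the limit (adjusted p = 2.19e-07, edgeR). Among the differentiated conditions edgeR called no difference, the nearest being 1 week against 72 h (adjusted p = 0.0788), and with TNF the differences were -0.99 ± 0.66 SE at 24 h (adjusted p = 0.587, edgeR) and -1.21 ± 0.95 SE at 72 h (adjusted p = 0.457, edgeR). Without both first TNF replicates they were -1.22 (adjusted p = 0.562, edgeR) and -0.66 (adjusted p = 0.75, edgeR). The difference at 72 h ranged from -4.34 to -0.64 over 25 alternatives, with the lowest value in the fit without the third 72 h TNF replicate, which held all 3 treated counts. Summed levels of 6 neural stem cell markers were lower in the same comparison as *Cdkn1c* and *Grb10*, from 3665.4 to 4958.2 CPM in NSPs to 2094.3 to 2523.0 CPM at 24 h. The same held for the 6 markers of the oligodendrocyte lineage, from 436 to 458.1 CPM in NSPs to 107.7 to 117.6 CPM at 24 h, with the mature markers *Mbp* and *Mog* at 0 to 1.008 CPM in all libraries. The part of such cells in either gene was not tested.

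**Figure D4:**
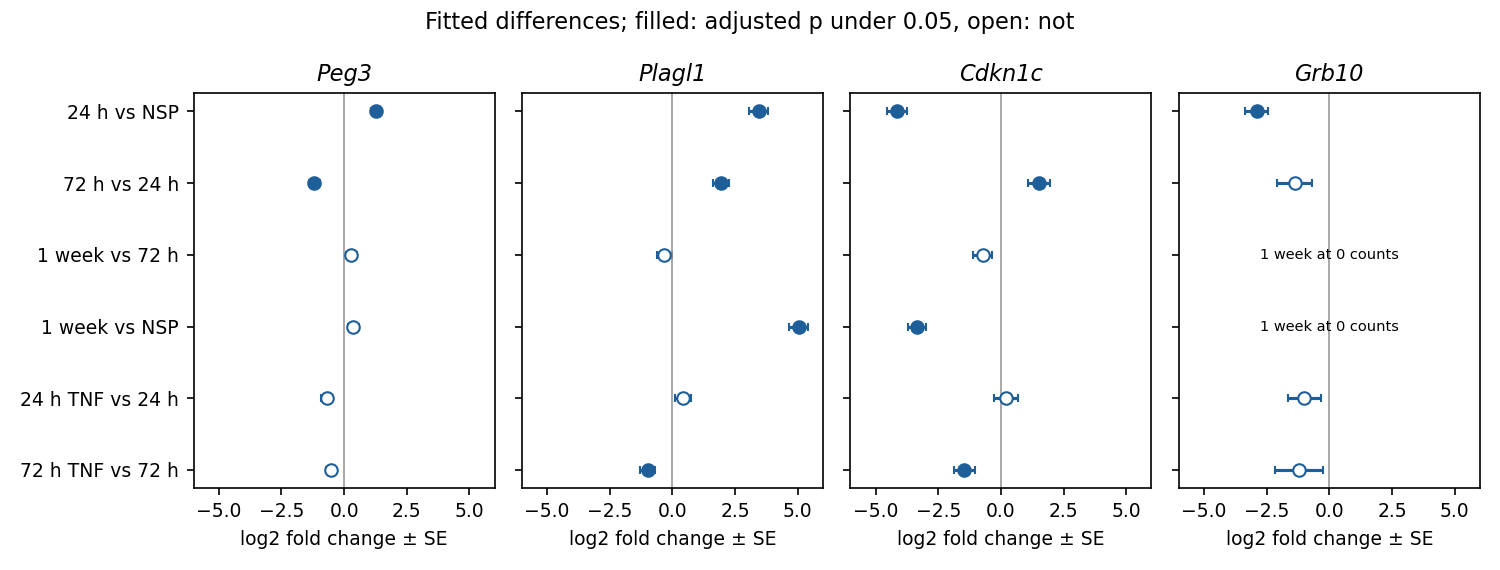
Fitted log2 fold change (horizontal axis, bars are SE) of the 4 tested genes in 6 comparisons; filled points have an adjusted p under 0.05. *Plagl1* moves from 3.44 at 24 h against NSP to -0.98 with TNF at 72 h, *Peg3* changes sign between 24 h and 72 h (1.27 and -1.19), and *Grb10* has no point at 1 week, where it had 0 counts.

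In counts of the 10 genes, 2 were called higher (*Peg3*, *Plagl1*) and 1 lower (*Cdkn1c*) at 24 h against NSPs, beside 27.2% and 25.5% of all tested genes, while the 6 genes below the filter could not be called. *Grb10* was called lower there and at 1 week against NSPs, but it was tested only because of its level in NSPs, so it is left out of both counts. At 72 h against 24 h 2 were higher (*Plagl1*, *Cdkn1c*) and 1 was lower (*Peg3*), beside 12.2% and 12.6% of all tested genes. At 1 week against 72 h none was called by edgeR or DESeq2 (1 at an unadjusted p under 0.05, *Grb10*), beside 2.68% higher and 3.96% lower. At 1 week against NSPs 1 was higher (*Plagl1*) and 1 was lower (*Cdkn1c*), beside 29.6% and 29.1%, and DESeq2 called *H19* lower as well. With TNF none was called at 24 h by edgeR (1 at an unadjusted p under 0.05 and 1 by DESeq2, both *Peg3*), beside 2.18% higher and 1.32% lower, and 2 were lower at 72 h (*Cdkn1c*, *Plagl1*), beside 4.35% higher and 5.21% lower. None was called in the interaction by edgeR or DESeq2 (2 at an unadjusted p under 0.05, *Cdkn1c* and *Plagl1*), beside 0.135% and 0.324%.

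The shapes of the 4 profiles were compared by the root mean square difference of mean log2 CPM over the 6 conditions, each profile centred on its own mean. Among themselves, *Cdkn1c* and *Grb10* were closest (0.92) and *Plagl1* and *Grb10* farthest apart (3.2). The 2 other tested genes most like *Peg3* were *Csrnp1* (0.132) and *Mir9-3hg* (0.132). Those most like *Plagl1* were *Tead4* (0.186) and *Pawr* (0.231). For *Cdkn1c* they were *Hist1h4k* (0.253) and *Hist1h4n* (0.328), and for *Grb10* *Hist1h3e* (0.188) and *Hist1h4a* (0.199). These values describe 6 means and come with no test.

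Other imprinted genes from the textbook list moved in both directions. Of 22 genes listed as paternally expressed 17 were tested. At 24 h against NSPs 5 rose and 7 fell (27.2% and 25.5% over all tested genes), with a median log2 fold change of -0.05. At 1 week against NSPs 3 were higher and 10 lower (29.6% and 29.1% over all), with a median log2 fold change of -0.57 against 0.06 over all tested genes. The largest fall at 1 week was that of *Peg12* (-3.81 ± 0.31 SE, adjusted p = 8.26e-09, edgeR), an intronless gene of the Prader-Willi region. *Mest*, a hydrolase-like gene known for embryonic growth, fell from 137 CPM ± 28.2 in NSPs to 36.5 ± 2.19 at 1 week (-1.90 ± 0.13 SE, adjusted p = 7.99e-10, edgeR). *Peg10*, a retrotransposon-derived gene, rose to 24 h (1.84 ± 0.30 SE, adjusted p = 5.7e-05, edgeR) as *Peg3* did. *Nnat*, a membrane proteolipid of the developing brain, fell to 24 h (-1.23 ± 0.33 SE, adjusted p = 0.00438, edgeR). From 24 h to 72 h 1 rose and 5 fell (12.2% and 12.6% over all), and from 72 h to 1 week 2 fell (3.96% over all). Several of these calls were lost in 5 or more of the alternatives. They were *Mcts2* at 24 h (14 of 27), *Sgce* (7) and *Peg10* (5) from 24 h to 72 h, *Nap1l5* from 72 h to 1 week (6), and *Rasgrf1* (12 of 25) and *Zrsr1* (9) at 1 week against NSPs. With TNF none was called at 24 h by edgeR or DESeq2 (1 at an unadjusted p under 0.05), and 1 was higher (*Airn*) and 2 were lower (*Mcts2* and *Nap1l5*) at 72 h, beside 4.35% and 5.21% of all tested genes. The *Airn* call was lost in 6 of 27 alternatives and the *Mcts2* call in 14, in both cases also without both first TNF replicates (*Airn* 0.63, adjusted p = 0.183, and *Mcts2* -0.53, adjusted p = 0.0632, edgeR). In the interaction none was called by edgeR or DESeq2 (2 at an unadjusted p under 0.05).

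Of 19 genes listed as maternally expressed 8 were tested, and 5 never exceeded 3 counts in a library. The label is that of the list, and which parental copy these cultures used was not measured. At 24 h against NSPs 3 rose and 2 fell (27.2% and 25.5% over all tested genes), from 24 h to 72 h 2 rose and 3 fell (12.2% and 12.6%), and at 1 week against NSPs 2 were higher and 3 lower (29.6% and 29.1%). The medians were 0.26, -0.19 and 0.14, against 0.06, -0.01 and 0.06 over all. The fall of *Trappc9* from 24 h to 72 h was lost in 17 of 27 alternatives. *Osbpl5*, a sterol-binding protein gene near *Cdkn1c*, rose from 35.3 CPM ± 9.48 in NSPs to 258 ± 16.8 at 1 week (2.87 ± 0.21 SE, adjusted p = 1.74e-09, edgeR). *Gatm*, an enzyme of creatine synthesis, fell by 3.57 on the log2 scale (SE 0.22, adjusted p = 1.28e-10, edgeR). *H13*, a signal peptide peptidase gene, rose from 91.7 CPM ± 5.91 to 290.5 ± 15.2 (1.66 ± 0.10 SE, adjusted p = 1.96e-10, edgeR). Its smaller rise at 24 h (0.25, adjusted p = 0.0477, edgeR) was lost in 20 of 27 alternatives, DESeq2 and RLE scaling among them. With TNF at 72 h *H13* fell by 1.02 (SE 0.10, adjusted p = 3.68e-06, edgeR) where 1 gene of the group was higher (*Igf2r*) and 2 were lower (*H13* and *Osbpl5*), beside 4.35% and 5.21% of all tested genes. The *Osbpl5* call was lost in 14 of 27 alternatives (adjusted p up to 0.195, edgeR), the one without both first TNF replicates among them (-0.49, adjusted p = 0.104, edgeR). With TNF at 24 h none was called by edgeR or DESeq2 (4 at an unadjusted p under 0.05), and between 72 h and 1 week none was called by either tool (2 at an unadjusted p under 0.05). *H13* was the 1 call in the interaction, with a lower effect at 72 h, beside 0.324% called lower over all.

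**Figure D5:**
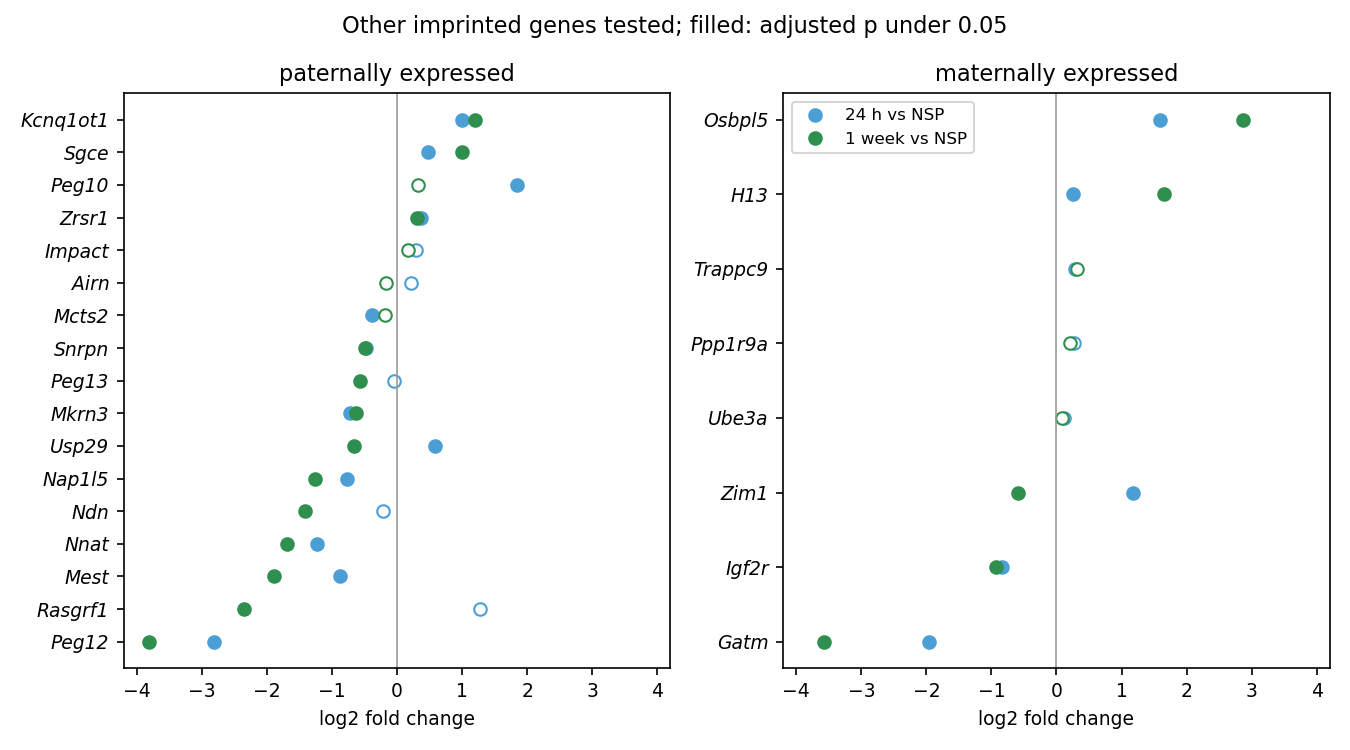
Fitted log2 fold change (horizontal axis) of the other imprinted genes that were tested, 17 listed as paternally expressed (left) and 8 as maternally expressed (right), at 24 h and 1 week against NSPs; filled points have an adjusted p under 0.05. Points lie on both sides of 0 in each panel, from *Peg12* at -3.81 to *Osbpl5* at 2.87 at 1 week.

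*Dlk1* acts on Notch signalling, and its 8 listed relatives and Notch genes were all tested. At 24 h against NSPs 3 rose and 2 fell (27.2% and 25.5% over all tested genes), from 24 h to 72 h 1 rose and 4 fell (12.2% and 12.6%), and at 1 week against NSPs 3 were higher and 4 lower (29.6% and 29.1%). *Hes5*, a Notch target of neural stem cells, fell from 72.5 CPM ± 41.7 in NSPs to 7.69 ± 1.27 at 24 h (-3.23 ± 0.50 SE, adjusted p = 3.54e-05, edgeR). *Notch2*, a receptor, rose to 24 h (1.17 ± 0.17 SE, adjusted p = 2.22e-05, edgeR). With TNF at 72 h 2 were lower, *Hes1* and *Hey1*, beside 5.21% over all. The *Hes1* call was lost in the fit of the compared groups alone, with the block that leaves the third 72 h replicate unpaired, and without that replicate (adjusted p up to 0.0616, edgeR). The fall of *Notch1* from 24 h to 72 h was lost with the same block. None was called by edgeR between 72 h and 1 week (1 at an unadjusted p under 0.05 and 1 by DESeq2), with TNF at 24 h (3 and 1) or in the interaction (3 and 0).

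Factors that keep, set or remove DNA methylation at imprints were listed as 12 genes, of which 11 were tested. At 24 h against NSPs 3 rose and 5 fell, beside 27.2% and 25.5% of all tested genes, with a median of -0.23 against 0.06 over all. Those that rose were *Dnmt3a*, a methyltransferase that sets new methylation (0.46 ± 0.11 SE, adjusted p = 0.00131, edgeR), and *Tet1* (0.50 ± 0.15 SE, adjusted p = 0.00955, edgeR) and *Tet2* (0.78 ± 0.17 SE, adjusted p = 0.000719, edgeR), enzymes that oxidise methylated cytosine on the way to its removal. *Uhrf1*, which brings the maintenance methyltransferase to replicated DNA, fell from 131.8 CPM ± 73.9 in NSPs to 7.52 ± 0.715 at 24 h (-4.13 ± 0.39 SE, adjusted p = 1.17e-07, edgeR). *Dnmt1*, that methyltransferase, fell by 2.07 on the log2 scale (SE 0.20, adjusted p = 1.21e-07, edgeR). *Zfp57*, a zinc-finger protein that protects imprints, fell by 1.31 (SE 0.25, adjusted p = 0.000318, edgeR), and its partner *Trim28* fell by 1.18 (SE 0.16, adjusted p = 7.83e-06, edgeR). The insulator protein *Ctcf* was the other gene that fell (-0.79 ± 0.13 SE, adjusted p = 7.16e-05, edgeR). *Zfp57* was higher with TNF at 72 h (1.39 ± 0.28 SE, adjusted p = 0.00272, edgeR), the only call of the group there (4.35% over all). From 24 h to 72 h 3 fell (12.6% over all), and at 1 week against NSPs 1 was higher and 5 were lower (29.6% and 29.1% over all). The higher one was *Tet2* (0.40, adjusted p = 0.0455, edgeR), a call lost in 13 of 27 alternatives, and the fall of *Tet1* from 24 h to 72 h was lost in 3 and that of *Zfp57* in 1. With TNF at 24 h *Tet1* was lower (-0.73 ± 0.15 SE, adjusted p = 0.0087, edgeR), beside 1.32% over all. Between 72 h and 1 week and in the interaction none was called by edgeR or DESeq2 (0 at an unadjusted p under 0.05 in each).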

How the data were processed

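Total RNA of 18 cultures was depleted of ribosomal RNA, made into stranded libraries and sequenced as paired ends. The authors used FastQC and Trim Galore on the reads, STAR and SAMtools for alignment and sorting, and featureCounts for counting, and the deposited values are raw counts per gene with no normalization. Per the labels the build is mm10. Tool versions, the strand setting and the rule for reads shared between genes are not given in the sources used here. Integrity of the RNA (RQN) ranged from 3.4 to 10 in the study and is not given per library, so its effect was not tested.

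Identifiers were matched to GENCODE M21 (54809 of 54838). Total counts per library were 12509693 to 22549627 (median 16794798), and reads had no molecular identifiers, so intervals cover counting error only. No pair of replicates of a condition was a duplicate, since the chi-square of their counts was 4.08 to 62.74 times its degrees of freedom. In the table, the column of 72 h replicate 3 is numbered 4.

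From the counts, edgeR 4.0.16 (R 4.3.3, limma 3.58.1) computed TMM factors and its quasi-likelihood test with a condition mean over all libraries, after its filter by condition (20067 genes). DESeq2 1.42.0 was an alternative. Both tests were checked on simulated counts. CPM uses TMM, and 2 was the prior count for log2 CPM. Tables and figures used Python 3.11.15 with pandas 2.3.3, numpy 2.4.6 and matplotlib 3.10.9. Poisson intervals are exact, and 3 counts were the detection limit.

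The 10 genes, the comparison lists and the marker lists were chosen with earlier results of these data known. Named were the 10 genes, the list genes called with the largest change first, the genes between *Dlk1* and *Dio3* and from *H19* to *Cdkn1c*, and the 2 genes of most similar profile. Alternatives were DESeq2, RLE scaling, other filters on low counts, the replicate block, a fit of the compared groups alone, a minimum log2 fold change of 1, and leaving out each library. A minimum of 5 counts over all libraries, a block with the third 72 h replicate unpaired, and leaving out both first TNF replicates were added after the data were seen. Chromatin data were not analysed here.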

Additional observations from a re-analysis of the deposited data

Results flagged for a closer look

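The TNF effect on *H13* differed between 24 h and 72 h by the interaction term of edgeR. *H13* was at 92.4 CPM ± 3.67 with TNF and 109 ± 2.68 without at 24 h, and at 125.7 ± 8.89 with TNF and 255 ± 21.5 without at 72 h (SD, n = 3), and the log2 effects differed by -0.78 (SE 0.14, adjusted p = 0.0207). Over the alternatives the difference ranged from -0.85 to -0.72, and 20 of 27 kept it past the threshold (adjusted p up to 0.104).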

How the results depend on the processing

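Fold changes of *Peg3*, *Plagl1* and *Cdkn1c* from NSPs to 24 h kept their direction and their call under every alternative in which each could be fitted (*Peg3* 1.22 to 1.38, *Plagl1* 3.25 to 3.58, *Cdkn1c* -4.5 to -3.84). That of *Grb10*, which its level in NSPs brought into the test, ranged from -3.14 to -2.63. With at least 10 counts in every library, which removes *Cdkn1c* and *Grb10* and ends the *Plagl1* call at 72 h TNF (-0.95, adjusted p = 0.0753), the number of the 10 genes called was 2 at 24 h against NSP (4 in the reported fit with *Grb10*), 1 at 1 week against NSP (3 with *Grb10*) and 0 at 72 h TNF against 72 h (2 as reported). With no filter it was 1 at 1 week against 72 h, 5 at 1 week against NSP (*Peg3* and *H19* added), 1 at 24 h TNF against 24 h and 1 in the interaction (0, 3, 0 and 0 as reported), in a fit whose spread followed the trend over genes and not the single gene. DESeq2 called 4 at 1 week against NSP, *H19* added. At 24 h TNF against 24 h it was 1 with DESeq2 and 1 without both first TNF replicates. At 72 h TNF against 72 h it was 1 with a log2 fold change of at least 1 and 1 without both first TNF replicates. Leaving out single libraries gave 0 to 1 at 1 week against 72 h, 0 to 1 at 24 h TNF against 24 h, and 0 to 2 at 72 h TNF against 72 h.

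Whether libraries of the same replicate number belong together is not given and was not settled here. No comparison had correlations of deviations over 0.1 for every number. The pair of 24 h TNF with 72 h TNF entered only as part of an average over the groups of the interaction. The replicate block left 1 call at 72 h TNF against 72 h (*Plagl1* -0.94, adjusted p = 0.0526), and the block with the third 72 h replicate unpaired left 0 (*Cdkn1c* adjusted p = 0.0935, *Plagl1* 0.0936). The latter block turned the *Grb10* interaction to 0.23. Leaving out single libraries turned it as well (-3.35 to 0.35), with the *Peg3* interaction (-0.01 to 0.45) and the *Plagl1* effect at 24 h TNF (-0.25 to 0.68). Without both first TNF replicates the *Grb10* interaction was 0.57 and the *Plagl1* effect -0.24. None of these was called, and the cause was not tested. Of 130 calls of list genes, 97 held under every alternative run, 33 were lost under at least 1 and 0 changed sign. Counts over all genes also moved. From 24 h to 72 h 4970 were called, and 3286 with the unpaired block. From 72 h to 1 week 1331 were called, 2032 with no filter, 2001 in only the groups compared, 617 with the unpaired block and 2154 without both first TNF replicates, and 610 without the second 72 h replicate. With TNF at 24 h 703 were called, 1374 with no filter and 360 without the second 24 h replicate. At 72 h 1919 were called, 1277 in only the groups compared, 986 with the unpaired block, 965 without the second and 2922 without the first 72 h replicate. The interaction called 92 as reported, 239 with DESeq2, 554 with no filter, 56 with at least 10 counts in every library, 38 in only the groups compared, 24 with the unpaired block and 25 to 152 without single libraries. Depth limits the TNF comparisons of *Cdkn1c* and *Grb10*, which rest on 0 to 12 counts per treated library.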
